A study of Homo sapiens with 8 samples.

Results

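The BCL2 family decides whether the outer membrane of the mitochondrion is opened during apoptosis, and 10 of its genes were followed here in 8 RNA sequencing libraries. They were taken as a named set, matched by Ensembl identifier, and make up 10 of the 34618 genes in the count table. BCL2, BCL2L1, MCL1 and BCL2A1 encode anti-apoptotic proteins, BAX and BAK1 the pore-forming effectors, and BBC3, PMAIP1, BID and BCL2L11 the BH3-only proteins that carry death signals to the other members. The anti-apoptotic proteins hold effectors and BH3-only proteins in check by binding their BH3 helix. BBC3 (PUMA), PMAIP1 (NOXA) and BAX are textbook transcriptional targets of p53, and myeloid leukaemia cells are known for leaning on MCL1 and BCL2. Transcript counts per gene do not separate splice forms, which matters for MCL1, BCL2L1 and BCL2L11, whose isoforms can differ in activity.

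All libraries came from cells labelled THP1, a human monocytic leukaemia line kept as an established culture. Cells with an empty vector gave the 4 MOCK libraries. Cells with the iRxI/AxA mutant, which other labels call RRM2 OE, gave the 4 RRM2_OE libraries. Every culture, control cultures included, was given 2 µg/mL doxycycline, so exposure to the drug was common to both groups. The labels do not say whether replicates were separate cultures or whether either population was 1 clone. The p-values below therefore measure only the spread between these libraries, which may be technical.

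Levels are CPM, each count taken relative to its library size after scaling by trimmed means (TMM), and library totals lay between 10994255 and 11686152 counts. RRM2, the small subunit of ribonucleotide reductase and the gene the labels name, lay at 116 to 128 CPM in MOCK and at 215 to 236 CPM in RRM2_OE. Among markers of monocytic cells, LYZ, CD33, CSF1R and ITGAM were well expressed, while CD68 reached at most 1.13 CPM. Summed over 8 monocyte markers the level was 2004 to 2195 CPM in MOCK and 2519 to 2722 CPM in RRM2_OE. Most of that sum was LYZ, with a mean of 1705 CPM in MOCK and 2197 CPM in RRM2_OE. Of the 7 tested, 4 rose (CD14, LYZ, CSF1R and ITGAM) and 1 fell, beside 7.41% and 5.42% of all tested genes. The gene that fell was MNDA, by 0.39 on the log2 scale (adjusted p = 4.66e-04, edgeR). CDKN2A, commonly described as deleted in THP1, was present at 44.6 to 56.3 CPM across the 8 libraries, which does not match that description. Summed over 6 T and NK markers the level was 44.4 to 49.7 CPM in MOCK and 64.0 to 78.7 CPM in RRM2_OE, with CD3E, CD3G and CD2 below 1 CPM throughout. Summed over 6 erythroid markers it was 176 to 191 CPM in MOCK and 130 to 141 CPM in RRM2_OE. The part of these shifts in the results below was not tested.

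In RRM2_OE 6 of the 10 BCL2 family genes rose and 0 fell, with 0.05 as the threshold for the adjusted p (edgeR's quasi-likelihood test, Benjamini-Hochberg over the 15286 genes tested). Over all tested genes 7.41% were higher and 5.42% lower. The 10 genes were chosen with earlier results of these data known, so this contrast is no independent evidence. BBC3 and PMAIP1 changed most, BAX came next, and BCL2L1, BCL2L11 and MCL1 rose by less than 1.2-fold. BCL2A1, BAK1, BID and BCL2 did not pass. The 6 genes called were also those with every RRM2_OE library above every MOCK library, a pattern seen in 10.5% of tested genes, and 0 showed the reverse, seen in 8.89%. The 10 genes had a median log2 fold change of 0.19, and all tested genes one of -0.0028. All 10 passed the filter on low counts.

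**Figure D1:**
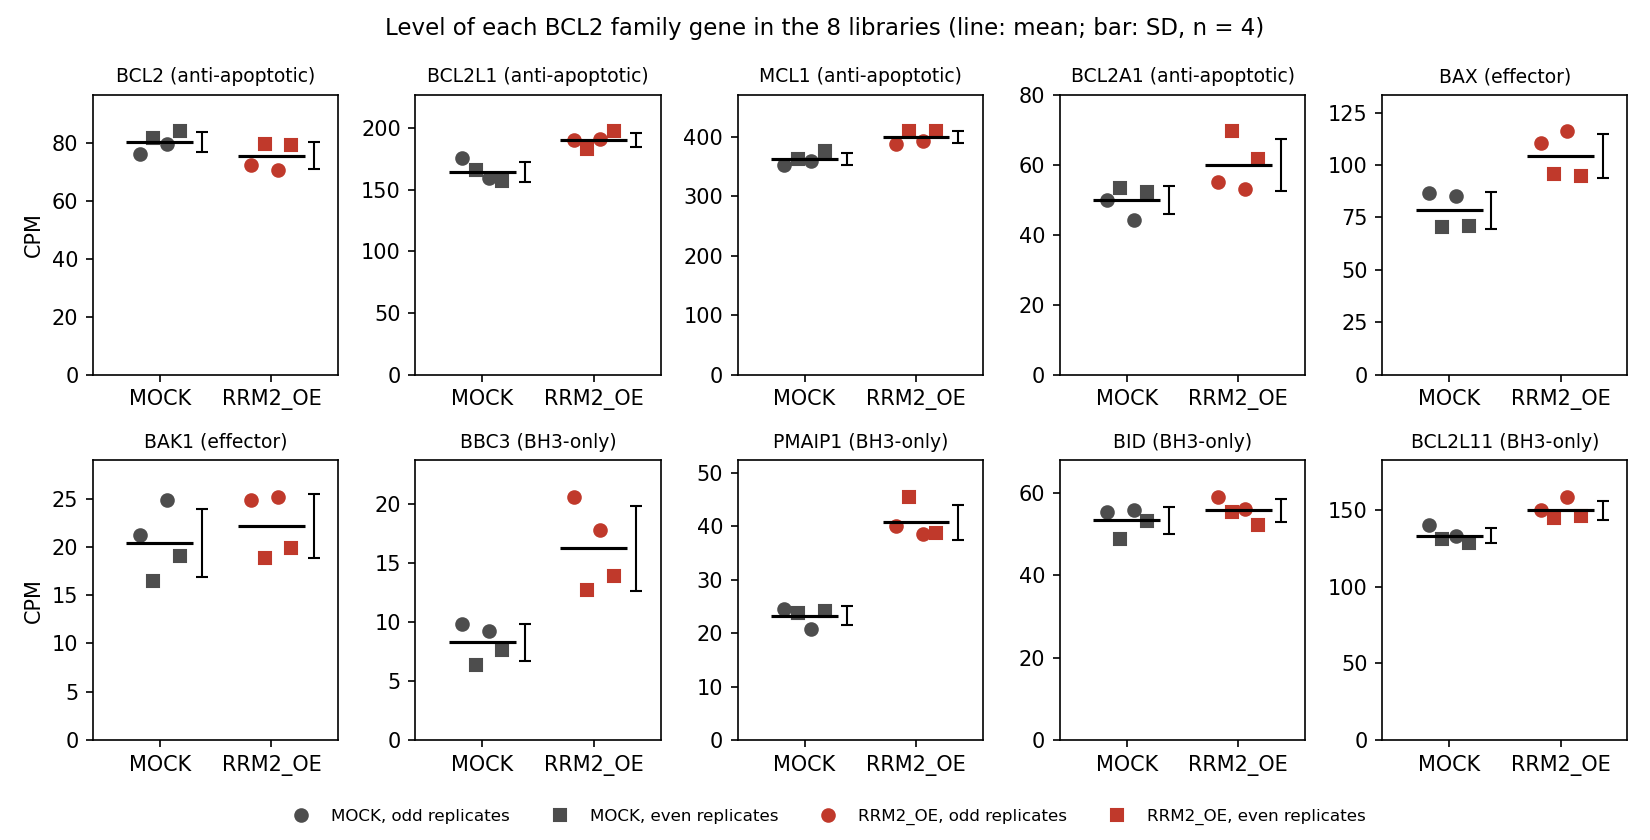
CPM of each BCL2 family gene in every library, with replicates 1 and 3 as circles and replicates 2 and 4 as squares; lines are means and bars SD of 4 libraries. For BBC3, PMAIP1, BAX, BCL2L1, MCL1 and BCL2L11 all RRM2_OE points lie above all MOCK points, and for the other 4 genes the groups overlap.

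BBC3 encodes PUMA, a BH3-only protein that binds every anti-apoptotic member. It was measured at 9.86, 6.37, 9.23 and 7.63 CPM in MOCK replicates 1 to 4 and at 20.6, 12.7, 17.8 and 13.9 CPM in RRM2_OE replicates 1 to 4. The lowest RRM2_OE library lay above the highest MOCK library, and within each group replicates 1 and 3 were the higher pair. The mean went from 8.27 ± 1.58 to 16.3 ± 3.62 CPM (SD, n = 4), a 1.96-fold rise (log2 fold change 0.97, SE 0.17, adjusted p = 0.00390, edgeR). Between 72 and 237 reads stood behind each value, the fewest of the family.

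PMAIP1 encodes NOXA, a small BH3-only protein that chiefly engages MCL1 and the BCL2A1 product. Its 4 MOCK libraries gave 24.5, 23.8, 20.8 and 24.1 CPM and its 4 RRM2_OE libraries 40.03, 45.6, 38.6 and 38.8 CPM. The gap between the groups was wider than the whole range inside either one. The mean moved from 23.3 ± 1.70 to 40.7 ± 3.28 CPM (SD, n = 4), or 1.75-fold (log2 fold change 0.81, SE 0.08, adjusted p = 3.74e-05, edgeR). This was the smallest adjusted p in the family.

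BAX, an effector that moves from the cytosol into the mitochondrial membrane, gave 86.8, 70.2, 85.2 and 71.0 CPM in MOCK and 110.3, 95.5, 116 and 94.9 CPM in RRM2_OE. The groups did not overlap, and again replicates 1 and 3 stood above replicates 2 and 4. BAX rose from 78.3 ± 8.92 to 104 ± 10.6 CPM (SD, n = 4; log2 fold change 0.41, SE 0.09, adjusted p = 0.0110, edgeR). BBC3, PMAIP1 and BAX kept their calls under each of 19 alternative settings, including the removal of any single library.

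Because BBC3, PMAIP1 and BAX showed the 3 largest differences, the 250 bases before their annotated starts are shown, from RefSeq on GRCh38.p14 and in the direction of transcription. Capitals mark matches to the p53 response element consensus, to GC boxes (GGGCGG or CCGCCC) and to the E-box CACGTG.
BBC3: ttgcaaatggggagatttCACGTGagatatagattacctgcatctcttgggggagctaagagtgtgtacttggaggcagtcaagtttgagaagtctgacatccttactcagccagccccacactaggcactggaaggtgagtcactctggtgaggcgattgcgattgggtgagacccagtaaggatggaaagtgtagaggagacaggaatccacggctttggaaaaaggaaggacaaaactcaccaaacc
PMAIP1: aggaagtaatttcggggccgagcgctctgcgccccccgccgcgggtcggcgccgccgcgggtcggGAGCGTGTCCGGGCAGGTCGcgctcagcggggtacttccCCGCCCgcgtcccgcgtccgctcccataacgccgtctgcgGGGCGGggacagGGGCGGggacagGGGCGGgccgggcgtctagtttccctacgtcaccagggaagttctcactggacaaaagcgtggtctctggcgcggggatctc
BAX: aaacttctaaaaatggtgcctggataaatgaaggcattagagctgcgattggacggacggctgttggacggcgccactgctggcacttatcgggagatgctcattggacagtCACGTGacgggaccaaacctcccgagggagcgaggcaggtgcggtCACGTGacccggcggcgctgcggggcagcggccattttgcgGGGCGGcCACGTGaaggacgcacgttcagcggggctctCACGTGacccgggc
The windows are chr19:47232668-47232917 on the minus strand for BBC3, chr18:59899746-59899995 on the plus strand for PMAIP1 and chr19:48954625-48954874 on the plus strand for BAX.

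These 3 windows differ in make-up. A p53 match was taken as the 20-base consensus with its 4 core C and G letters intact and at most 3 mismatches. The p53 consensus and the E-box each read the same on both strands, and the GC box was searched on both. Windows of 300 bases (250 before and 50 after the start) were searched in the whole table of 35116, where 9 of the 10 BCL2 family genes had at least 1. A p53 match was found in 1.12% of all windows and, within the family, only in that of PMAIP1, as GAGCGTGTCCGGGCAGGTCG from 185 to 166 bases before the start, with 3 mismatches. For comparison, MDM2, whose p53 element is a textbook case, carried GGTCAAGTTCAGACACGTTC from 94 to 75 bases before one of its annotated starts, with 2 mismatches. PMAIP1 had 4 GC boxes, which 9.06% of windows equal or exceed, and 45.0% of windows hold at least 1. BAX had 4 E-boxes, where 7.26% of all windows hold any and 0.0940% hold 3 or more, while BBC3 had 1. Of the 9 family genes with a window, 6 had a GC box in at least 1 window and 3 had an E-box. BID, which was not called between the groups, had some windows with 4 GC boxes and others with 1 E-box. These matches describe letters in a short window and show neither binding nor its absence.

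BCL2L1, whose main product BCL-xL is anti-apoptotic, gave 176, 166, 159 and 157 CPM in MOCK and 190.5, 183, 191 and 197 CPM in RRM2_OE. All 4 RRM2_OE values were above all 4 MOCK values. Its mean rose from 165 ± 8.30 to 190.4 ± 5.97 CPM (SD, n = 4; log2 fold change 0.21, SE 0.05, adjusted p = 0.0124, edgeR), and the call held in each of 19 alternatives. A transcript on the opposite strand, BCL2L1-AS1, overlaps 30610 bases of the gene but averaged 1.25 reads per library.

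MCL1, a short-lived anti-apoptotic protein, gave 353, 363, 358 and 375 CPM in MOCK and 388, 409, 393 and 408 CPM in RRM2_OE. The groups stood apart by a narrow gap, from 375 to 388 CPM. MCL1 rose from 362 ± 9.65 to 399 ± 10.6 CPM (SD, n = 4; log2 fold change 0.14, SE 0.04, adjusted p = 0.0476, edgeR). This call was close to the threshold and was lost on leaving out any one of the 8 libraries (adjusted p = 0.0546 to 0.116, edgeR), as it was with RLE factors (adjusted p = 0.0504), with library sizes alone (adjusted p = 0.0621), with no low count filter (adjusted p = 0.0942) and on log2(RPKM + 1) in limma (adjusted p = 0.0776).

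BCL2L11 encodes BIM, a BH3-only protein that binds all anti-apoptotic members and can activate BAX and BAK directly. Its values were 140.4, 131, 133 and 129 CPM in MOCK and 150.02, 145, 159 and 146 CPM in RRM2_OE. The groups did not overlap, with 140.4 CPM as the highest MOCK value. The mean went from 133 ± 4.99 to 150.1 ± 6.23 CPM (SD, n = 4; log2 fold change 0.17, SE 0.05, adjusted p = 0.0331, edgeR). That call was lost on leaving out MOCK replicate 2, 3 or 4 or RRM2_OE replicate 1, 3 or 4 (adjusted p = 0.0525 to 0.101, edgeR).

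BCL2A1, an anti-apoptotic gene known for its induction by NF-kB in myeloid cells, gave 50.1, 53.4, 44.3 and 52.3 CPM in MOCK and 55.3, 69.7, 53.1 and 61.8 CPM in RRM2_OE. The lowest RRM2_OE value fell just short of the highest MOCK value. The log2 fold change was 0.26 (SE 0.09, adjusted p = 0.0689, edgeR). With replicate number as a block the same difference was called (log2 fold change 0.26, adjusted p = 7.31e-05, edgeR), and 7 BCL2 family genes were then higher and 0 lower, where 15.1% of all tested genes were higher and 14.0% lower. It was also called without RRM2_OE replicate 3 (log2 fold change 0.315, adjusted p = 0.0411, edgeR).

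BCL2 itself gave 76.2, 81.8, 79.8 and 84.2 CPM in MOCK and 72.6, 79.9, 71.0 and 79.6 CPM in RRM2_OE. The groups overlapped, although BCL2 was lower in RRM2_OE in 4 of 4 pairs of the same number (adjusted p = 0.0975 with the replicate block, edgeR). The labels do not say that equal numbers mark pairs. It was the one gene of the 10 with a negative estimate (log2 fold change -0.09, SE 0.06, adjusted p = 0.351, edgeR). The 95% interval of the ratio ran from 0.866 to 1.02, which spans both a small fall and no change. Over the alternatives its log2 fold change lay between -0.12 and -0.06 and it was called in none of the 19 (adjusted p = 0.0805 to 0.592).

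BAK1, the second effector, which sits in the mitochondrial membrane, gave 21.2, 16.5, 24.9 and 19.1 CPM in MOCK and 24.9, 18.8, 25.2 and 19.9 CPM in RRM2_OE. The groups overlapped almost entirely (log2 fold change 0.12, SE 0.13, adjusted p = 0.618, edgeR), and the 95% interval of the ratio was 0.890 to 1.33. BID, the BH3-only protein that caspase 8 cleaves to connect death receptors with mitochondria, gave 55.5, 48.8, 55.9 and 53.1 CPM in MOCK and 59.1, 55.4, 56.2 and 52.3 CPM in RRM2_OE. BID also overlapped between the groups (log2 fold change 0.06, SE 0.06, adjusted p = 0.555, edgeR), with an interval of 0.955 to 1.14 for the ratio. Differences beyond those bounds are not supported for either gene, and smaller ones could not be resolved. Leaving out 1 library moved the BAK1 log2 fold change to between 0.03 (without MOCK replicate 2) and 0.23 (without MOCK replicate 3). For BID the range was 0.02 (without MOCK replicate 2) to 0.09 (without RRM2_OE replicate 4), and neither gene was called in any of these fits.

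**Figure D2:**
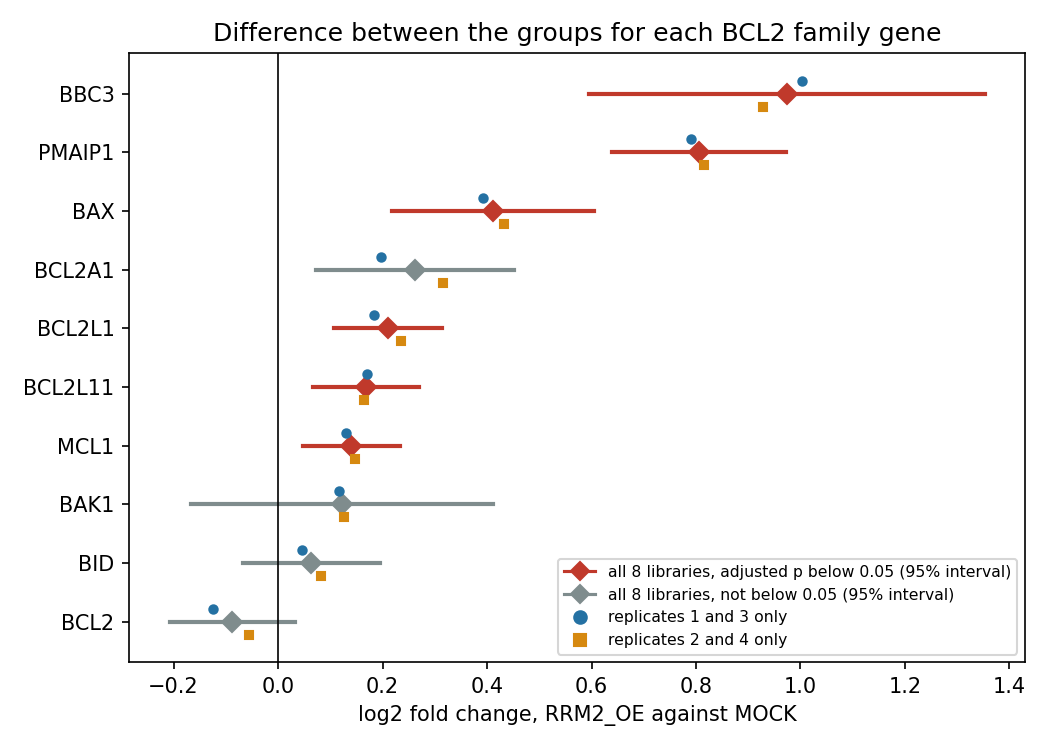
Log2 fold change of RRM2_OE against MOCK for each BCL2 family gene with its 95% interval over all 8 libraries (diamonds), and the same from replicates 1 and 3 (circles) or 2 and 4 (squares) alone. BBC3 (0.97) and PMAIP1 (0.81) lie farthest right, and BCL2 (-0.09) is the only gene left of 0.

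The replicate numbers marked a second division that crossed the groups and reached several BCL2 family genes. Mitochondrially encoded transcripts took 8.02% to 9.51% of counts in replicates 1 and 3 and 6.43% to 7.69% in replicates 2 and 4, and the labels do not say what the numbers stand for. In a fit with both terms, BBC3, BAK1 and BAX were higher in the odd-numbered libraries, by 0.50 (SE 0.09, adjusted p = 2.46e-05), 0.37 (SE 0.07, adjusted p = 4.28e-05) and 0.27 (SE 0.04, adjusted p = 5.85e-08) on the log2 scale (edgeR). BCL2A1 (-0.22, SE 0.05, adjusted p = 2.42e-04) and BCL2 (-0.12, SE 0.04, adjusted p = 0.0141) were lower there. So 3 of the 10 were higher and 2 lower, against 15.4% and 15.0% of all tested genes. The p-values of this fit measure only the narrow spread left between libraries alike in group and parity. BAK1 moved by 0.37 with this division and by 0.12 between the groups.

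Differences between RRM2_OE and MOCK were similar in size on either side of that division. BBC3 gave a log2 fold change of 1.00 in replicates 1 and 3, where its mean went from 9.54 to 19.2 CPM, and 0.93 in replicates 2 and 4, where it went from 6.998 to 13.3 CPM. For PMAIP1 the values were 0.79 and 0.82, for BAX 0.39 and 0.43, and for BCL2L1 0.18 and 0.24. BCL2A1 gave 0.20 in the odd-numbered and 0.32 in the even-numbered libraries, called in both (adjusted p = 0.0350 and 2.48e-04, edgeR). Each of these fits rests on 2 libraries per group, alike in parity. Such libraries differed little within a group, so these p-values measure only that narrow spread. No BCL2 family gene had an interaction between group and replicate parity at an unadjusted p below 0.05. The lowest was that of BCL2A1, at -0.11 (95% interval -0.31 to 0.09, unadjusted p = 0.258, edgeR's quasi-likelihood test). Over all genes 0 interactions passed at an adjusted p below 0.05 and 491, or 3.21%, had an unadjusted p below 0.05. The interval for BBC3, -0.32 to 0.48, leaves room for a sizeable difference between the odd and even libraries.

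**Figure D3:**
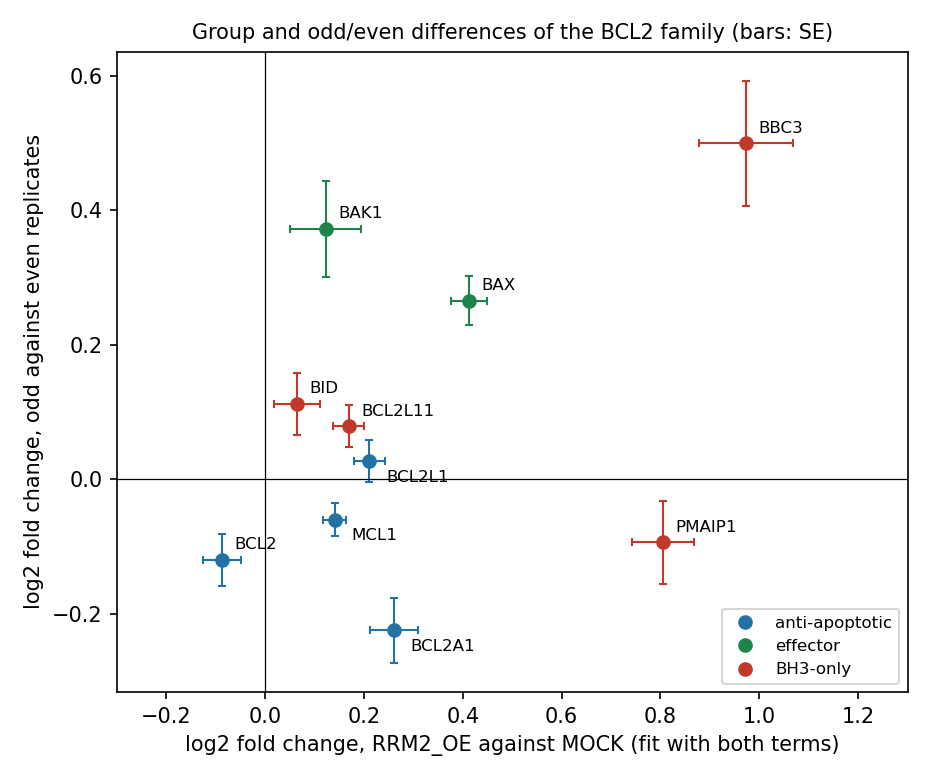
Log2 fold change between the groups (horizontal axis) and between odd and even replicate numbers (vertical axis) from the fit with both terms, with SE bars, for each BCL2 family gene coloured by role. BAX and BBC3 lie to the upper right, BAK1 high but near 0 horizontally, and PMAIP1 far right but near 0 vertically.

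Levels of different genes were compared on RPKM, which divides by exon length. In MOCK, MCL1 stood highest at 85.4 ± 3.67 RPKM (SD, n = 4), followed by BCL2L1 at 49.3 ± 1.65, BCL2A1 at 45.7 ± 3.86, BAX at 30.1 ± 3.14 and BCL2L11 at 19.9 ± 0.434 RPKM. BID (12.0 ± 0.724), BCL2 (10.4 ± 0.604), PMAIP1 (10.4 ± 0.734) and BAK1 (8.95 ± 1.57 RPKM) came next, each overlapping its neighbour, as did BCL2L1 and BCL2A1. BBC3 was lowest at 2.58 ± 0.471 RPKM. In RRM2_OE the order changed in 1 place: PMAIP1, at 18.3 ± 1.63 RPKM, stood above BID at 12.6 ± 0.506 and BCL2 at 9.92 ± 0.738 RPKM with no overlap. BBC3 remained lowest at 5.12 ± 1.08 RPKM. The lengths used cover all annotated exons of a gene, 1089 bases for BCL2A1 and 7665 for BCL2, so unused exons lower a gene's RPKM.

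**Figure D4:**
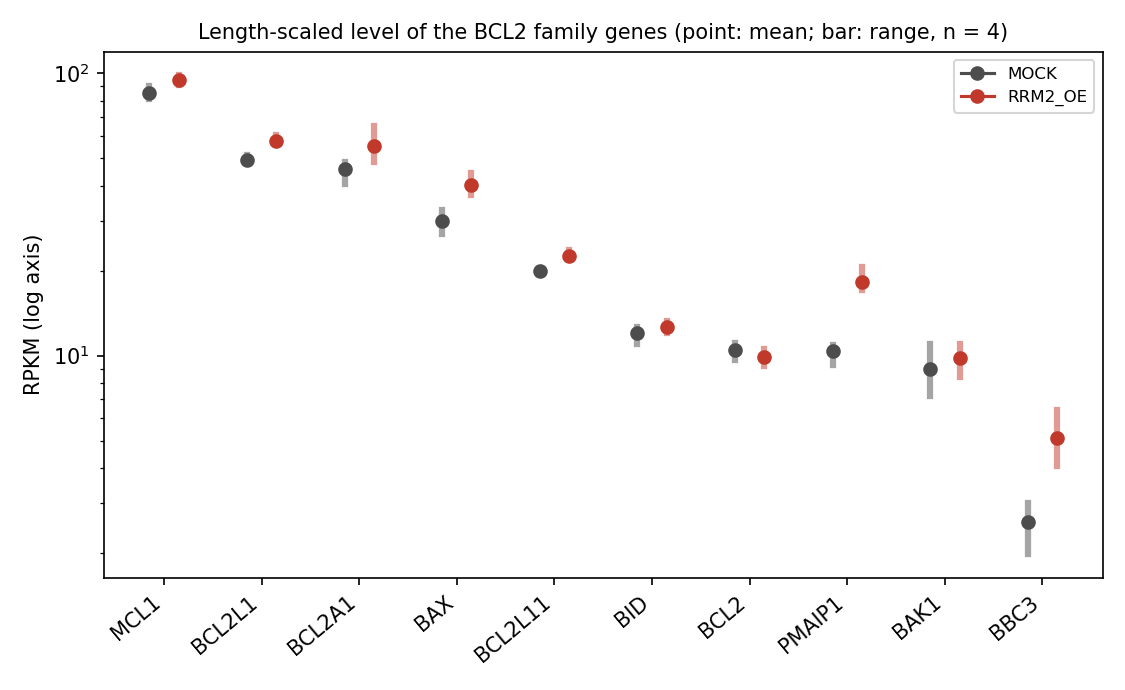
RPKM on a log axis for the 10 genes, ordered by their MOCK mean; points are means and bars the range of 4 libraries. MCL1 is highest in both groups and BBC3 lowest, and PMAIP1 passes BID and BCL2 in RRM2_OE.

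Summed RPKM by role shows how these shifts added up. The 4 anti-apoptotic genes together went from 184 to 198 RPKM in MOCK to 207 to 229.8 RPKM in RRM2_OE, the 2 effectors from 34.1 to 43.9 to 45.9 to 55.5, and the 4 BH3-only genes from 43.1 to 46.4 to 56.3 to 59.7 RPKM. Each of the 3 sums was higher in every RRM2_OE library than in any MOCK library. The ratio of BH3-only to anti-apoptotic RPKM was 0.248, 0.222, 0.244 and 0.228 in MOCK and 0.287, 0.259, 0.285 and 0.249 in RRM2_OE. The groups did not overlap, although only a small gap separated the highest MOCK ratio, 0.2476 in replicate 1, from the lowest RRM2_OE ratio, 0.2485 in replicate 4. With no overlap, the RRM2_OE ratio had to be the higher in 4 of 4 pairs of the same number, which adds no support. No test was run on this ratio. MCL1 to BCL2 went from 8.06 to 8.41 in MOCK to 9.29 to 10.05 in RRM2_OE, and BBC3 to MCL1 from 0.0233 to 0.0371 to 0.0413 to 0.0705. These ratios compare transcripts and say nothing of protein amounts.

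Of 13 further BCL2 family genes 10 were tested, 1 rose and 0 fell, near the 7.41% higher and 5.42% lower among all tested genes, and the median was 0.03 on the log2 scale. The one that rose was BMF, a BH3-only gene, from 27.3 ± 3.30 to 34.1 ± 1.04 CPM (SD, n = 4; log2 fold change 0.32, adjusted p = 0.0211, edgeR). Its call was lost in replicates 1 and 3 alone (adjusted p = 0.0759) and without MOCK replicate 2, MOCK replicate 4 or RRM2_OE replicate 3 (adjusted p = 0.0563 to 0.0640). BCL2L2, the anti-apoptotic BCL-w gene, gave 37.5 and 37.6 CPM in the 2 groups and BAD, a BH3-only gene regulated by survival kinases, 11.8 and 13.7 CPM, and neither passed. HRK, BCL2L10 and BCL2L15 stayed below 1 CPM in every library and were not tested.

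Downstream of the mitochondrion, 2 of 14 apoptosome, caspase and IAP genes rose and 1 fell, with a median of 0.04. With so few genes these counts lie near the shares among all tested genes, 7.41% and 5.42%. BIRC3, an inhibitor of apoptosis and NF-kB target, rose by 0.22 (adjusted p = 0.0176), while CASP6 fell by 0.37 on the log2 scale (adjusted p = 0.00976, both edgeR). The BIRC3 call was lost without MOCK replicate 3 or RRM2_OE replicate 2 or 4 (adjusted p = 0.0530 to 0.0584), and that of CASP6 in replicates 2 and 4 alone (adjusted p = 0.0538). APAF1, the scaffold of the apoptosome, gave -0.03, and the initiator CASP9 0.04. With the replicate block, 4 of the 14 rose and 1 fell, beside 15.1% and 14.0% of all tested genes.

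The death receptor route reaches mitochondria through BID. Of its 14 genes tested 6 rose and 1 fell, beside 7.41% and 5.42% of all tested genes, and the median difference was 0.25 on the log2 scale. The receptor FAS rose from 30.3 ± 1.85 to 49.3 ± 2.75 CPM, the ligand TNFSF10 (TRAIL) from 52.03 ± 4.38 to 84.5 ± 8.29 CPM, and the TRAIL decoy receptor TNFRSF10D from 24.2 ± 0.668 to 36.9 ± 2.07 CPM (SD, n = 4; adjusted p = 3.18e-05, 1.21e-04 and 7.17e-05, edgeR). CASP8, the protease that cleaves BID, rose by 0.21 on the log2 scale (adjusted p = 0.0335), and the signalling receptor TNFRSF10B by 0.62 (adjusted p = 0.00686, edgeR). The largest rise in the list was that of TNFRSF10C, by 1.10 (adjusted p = 0.00173, edgeR), from a low mean of 1.91 CPM in MOCK to 4.10 CPM in RRM2_OE. CFLAR, which blocks CASP8 activation, gave 293 and 293 CPM, and the adaptor FADD 26.2 and 27.7 CPM, neither of them called. The 1 gene that fell was TNFRSF1A, a TNF receptor (log2 fold change -0.20, adjusted p = 0.0137, edgeR).

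Of 14 genes for partners of BCL2 family proteins and for their turnover, 0 rose and 1 fell, with a median of 0.03. These counts too lie near the shares among all tested genes (7.41% higher and 5.42% lower). HUWE1, a ubiquitin ligase that marks MCL1 for degradation, fell from 486 ± 8.24 to 422 ± 16.1 CPM (SD, n = 4; log2 fold change -0.20, adjusted p = 0.00994, edgeR). It passed in each of 19 alternatives. With the replicate block 4 of these genes rose and 1 fell, where 15.1% and 14.0% of all tested genes did.

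Of 13 transcription factors known to act on BCL2 family genes, 3 rose and 2 fell, with a median of 0.02, beside 7.41% and 5.42% of all tested genes. TP73, a p53 relative that shares targets with it, rose from 4.83 ± 0.815 to 9.66 ± 1.29 CPM (SD, n = 4; log2 fold change 1.00, adjusted p = 6.22e-04, edgeR). E2F1 rose by 0.50 (adjusted p = 0.00145) and the stress factor DDIT3 by 0.46 (adjusted p = 0.0473), while MYC fell by 0.49 (adjusted p = 3.33e-05) and STAT5A by 0.18 on the log2 scale (adjusted p = 0.0111, all edgeR). DDIT3 overlapped between the groups, and its call was lost in 9 of 19 alternatives (adjusted p up to 0.165). RELA gave a log2 fold change of -0.04 and FOXO3 0.01, and neither passed. With the replicate block 5 of the 13 rose and 4 fell, beside 15.1% and 14.0%.

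Of 21 p53 targets outside the family 20 were tested, of which 14 rose and 0 fell, with a median of 0.52, beside 7.41% and 5.42% of all tested genes. MDM2, PHLDA3 and DDB2 had the smallest adjusted p-values, with log2 fold changes of 1.03, 1.16 and 0.63 (adjusted p = 5.64e-07, 2.91e-06 and 9.71e-06, edgeR). Within the BCL2 family the 3 textbook p53 targets BBC3, PMAIP1 and BAX had log2 fold changes of 0.97, 0.81 and 0.41, all others 0.26 or less. This list was drawn up with earlier results of these data known and is no independent evidence of its direction.

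**Figure D5:**
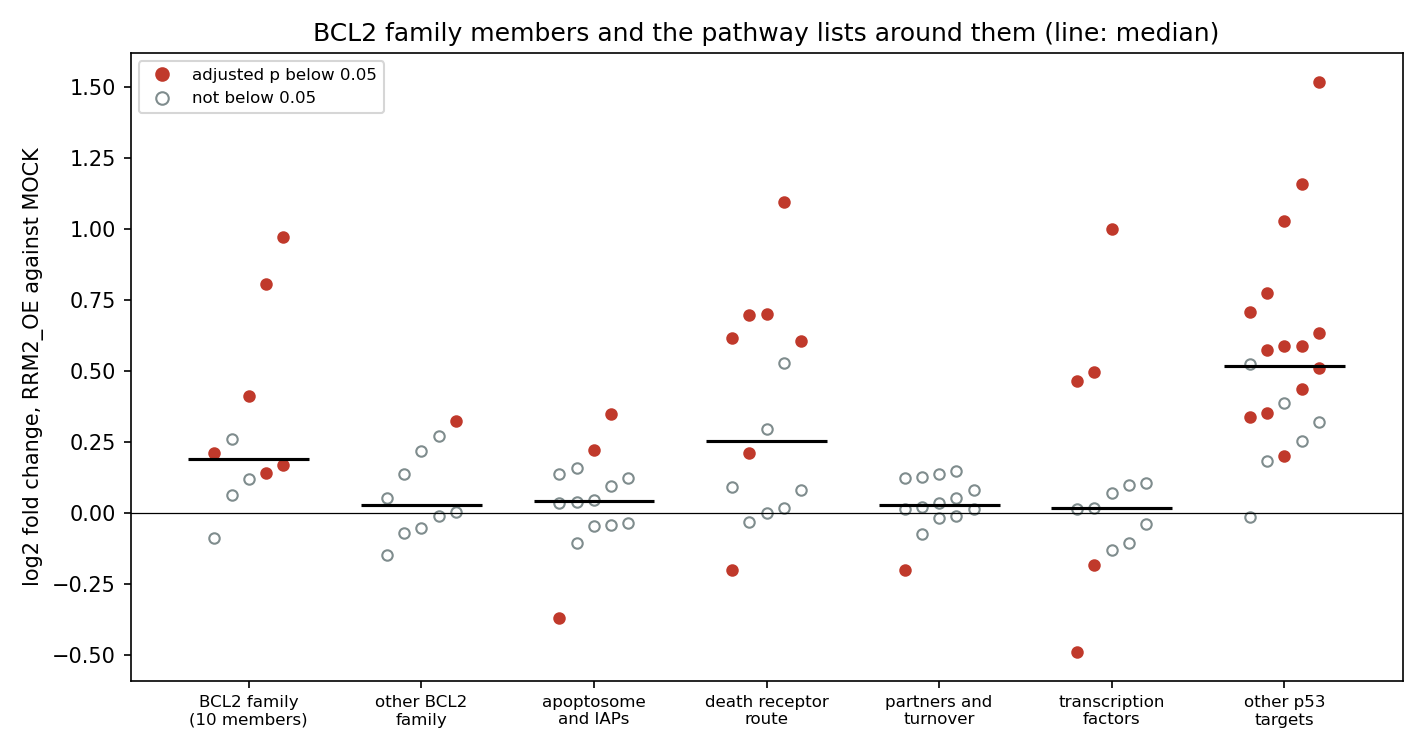
Log2 fold change of RRM2_OE against MOCK for the 10 BCL2 family genes and the tested genes of 6 lists around them; filled points have an adjusted p below 0.05 and lines are medians. The median is 0.52 for the other p53 targets, 0.25 for the death receptor route, 0.19 for the BCL2 family and between 0.02 and 0.04 for the other 4 lists.

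A pool of 9886 genes had a mean of at least 5 CPM and a symbol like those of protein-coding genes. LINC, antisense, pseudogene and clone names were left out. For each of the 6 BCL2 family genes called, the genes in that pool most parallel in log2 CPM over the 8 libraries were found. For BBC3 these were EIF2S2 (Pearson r = 0.994) and KSR1 (r = 0.992), for PMAIP1 LEPROTL1 (r = 0.997) and ATP6V1E1 (r = 0.986), and for BAX PIM1 (r = 0.996) and SERINC1 (r = 0.994). BCL2L1 was closest to CST7 (r = 0.993) and FLOT1 (r = 0.989), MCL1 to MX1 (r = 0.993) and ADAM19 (r = 0.993), and BCL2L11 to ADAMDEC1 (r = 0.990) and LILRB4 (r = 0.989). The size of the change did not follow from the likeness: EIF2S2 differed by 0.11 between the groups and LEPROTL1 by 0.17, against 0.97 for BBC3 and 0.81 for PMAIP1. Within the family BAX and BBC3 ran most alike (r = 0.97), and BCL2 and BAX most nearly opposite (r = -0.88). With 8 points that share the groups and the odd/even division, such values describe these libraries only.

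By the count table's coordinates on hg19, BBC3 (ENSG00000105327) lies on chromosome 19 at 47724081 to 47736023, PMAIP1 (ENSG00000141682) on chromosome 18 at 57567180 to 57571538 and BAX (ENSG00000087088) on chromosome 19 at 49458072 to 49465055. BCL2L1 (ENSG00000171552) lies on chromosome 20 at 30252255 to 30311792, MCL1 (ENSG00000143384) on chromosome 1 at 150547032 to 150552066 and BCL2L11 (ENSG00000153094) on chromosome 2 at 111876955 to 111926024. BCL2 (ENSG00000171791) shares chromosome 18 with PMAIP1, at 60790579 to 60987361, BCL2A1 (ENSG00000140379) lies on chromosome 15 at 80253231 to 80263788, BAK1 (ENSG00000030110) on chromosome 6 at 33540329 to 33548019 and BID (ENSG00000015475) on chromosome 22 at 18216906 to 18257536. Only BCL2 and BCL2L1 overlap other measured genes, each averaging fewer than 2 reads per library.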

How the data were processed

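Per the labels' protocols, 200 ng of RNA went into each stranded library after poly(A) selection. HTSeq 0.11.2, TopHat2, bcl2fastq 2.18.0.12 and the build hg19 are listed in the submitters' processing notes, with no roles. For the annotation and strand setting, nothing is given in the sources used here. Whole-number read counts per Ensembl gene make up the deposited table. The authors' RPKM values equal, to within 4.7e-06, those recomputed from the counts, column totals and deposited exon lengths. Symbols came from a table of current names or GENCODE 29, and all 132 list entries matched.

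Counts were fitted with edgeR 4.0.16 in R 4.3.3 (filterByExpr, TMM, robust quasi-likelihood F tests, group only), with Benjamini-Hochberg adjustment over 15286 genes and a threshold of 0.05. Each SE is the size of the log2 fold change divided by √F. Alternatives used DESeq2 1.42.0, limma 3.58.1 on log2(RPKM + 1) and log2(RPKM + 0.1), other scalings and filters, replicate number or parity in the model, each parity alone, and each library left out. Same-numbered libraries of the 2 groups deviated together (r = 0.25, 0.23, 0.22 and 0.23). Pairs of like parity but different number did so as much (r = 0.23 to 0.29). These values therefore show no pairing by number beyond the odd/even division, and replicate number as a block is only an alternative. Within a group, pairs of like parity differed by 1.47 to 2.90 and unlike pairs by 6.18 to 12.0 chi-square per degree of freedom, so none were merged. Named genes are all 10 family members and the 2 closest genes per called member. From each list they are every call of a list with at most 5, otherwise the 3 with the smallest adjusted p. Others (TNFRSF10B, TNFRSF10C, CASP8, TNFRSF1A and genes that did not pass) were chosen after their values were seen. Some genes the rule would name are not reported here. The members and lists were chosen with earlier results of these data known.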

Additional observations from a re-analysis of the deposited data

How the results depend on the processing

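The BCL2 family count of 6 higher and 0 lower moved to between 4 and 7 higher, and 0 lower, over 19 alternatives, and to 4 or 5 higher on leaving out 1 library. No log2 fold change of a BCL2 family gene changed sign in 190 refits, of which 19 lost a call (13 for MCL1 and 6 for BCL2L11) and 6 gained one (all for BCL2A1). Among the named list genes and RRM2, 17 of 323 refits lost a call and 0 changed sign. With the replicate block, 2303 of all genes were higher and 2143 lower, and 40 genes of the 6 lists together were higher, against 26. With the odd/even term the counts were 2427 and 2277, with 41 list genes higher and 9 lower, against 5. In odd replicates only, 1330 genes and 8 list genes were lower. On log2(RPKM + 1) and log2(RPKM + 0.1), 465 and 466 genes were lower. Leaving out 1 library left 808 to 937 genes higher and 542 to 607 lower, the fewest without MOCK replicate 2 (542) or RRM2_OE replicate 1 or 3 (545 each). Without a low count filter 1 interaction was higher and 1 lower. The replicate block changed no other family call than that of BCL2A1. The cause of these moves was not tested. None of 52 groups of 4 libraries held a value set apart from the rest by Dixon's criterion. At 72 to 237 reads BBC3 is the family gene most limited by depth.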
